A study of Sus scrofa with 8 samples.

Results

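Hepatic stellate cells are the retinoid-storing cells of the space between the sinusoidal endothelium and the hepatocytes. In the quiescent state they esterify retinol and keep it in lipid droplets, and after liver injury they can lose these droplets, take on smooth muscle features and lay down fibrous matrix. Platelet-derived growth factor is a main mitogen of these cells and acts through the receptors alpha and beta. The same contractile genes are also carried by vascular smooth muscle, pericytes and portal fibroblasts, so none of them marks stellate cells alone.

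The genes described here are 10 that are commonly read as marks of stellate cell identity or activation: the retinol esterifying enzyme *LRAT*, the growth factor receptors *PDGFRB* and *PDGFRA*, the pericyte regulator *RGS5*, the intermediate filament gene *DES*, the contractile genes *ACTA2* and *TAGLN*, the small leucine-rich proteoglycans *LUM* and *DCN*, and the fibroblast surface gene *THY1*. They were taken by their symbols, and all 10 were present among the 18103 rows of the table (17778 of them known genes). All 10 also passed the limit of 0.3 FPKM in at least 4 of the 8 libraries, which 13175 rows did.

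The libraries were made from liver RNA of male Landrace x Large White pigs, and each was a pool of 2 pigs. The initial state (healthy, 4 months old, on the control diet) was covered by 4 pools. Steatosis was covered by the other 4, at 6 months of age, after 2 months on a steatotic diet rich in saturated fat, fructose, cholesterol and cholate and poor in methionine and choline. Both groups are the same animals according to the study, sampled by biopsy under laparotomy at the start and after euthanasia at the end, so diet, age and the way of sampling cannot be told apart. Values are FPKM (fragments per kilobase of transcript, scaled to the mapped fragments of the library), which are per length and can therefore be set side by side between genes. The depth of the libraries, estimated from the step between the lowest FPKM values, lay between 92.6% and 100% of the deepest.

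Pool 1 of the initial state stood apart before any comparison. The summed FPKM of 19 skeletal muscle genes was 3527 in this pool, between 1.74 and 27.0 in the other initial pools and between 0.66 and 2.30 in steatosis, and all 19 genes were highest in this pool. The defining gene *ACTA1*, the actin of skeletal muscle, was at 1439 FPKM there and was listed at 0 in steatosis pools 2, 3 and 4. Genes of stomach mucosa behaved alike, with a sum over 12 genes of 2301 in this pool against 6.65 to 45.7 in the other initial pools and 6.62 to 7.26 in steatosis. The log2 fold changes of the 10 genes and the counts of the gene lists that follow are therefore given with and without pool 1 of the initial state, and other values with all pools unless stated. Hepatocyte genes were high in all pools, with *ALB* (albumin) at 50413 ± 13848 FPKM in the initial state and 37499 ± 4575 in steatosis (SD, n = 4 pools each).

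Among the 10 genes, the retinoid and receptor genes were higher after the diet and the contractile genes did not pass the test. *LUM* was lower at an adjusted p under 0.05 with all pools, but did not pass without initial pool 1. Genes were called where limma with Benjamini-Hochberg adjustment over all genes tested gave an adjusted p under 0.01 together with a log2 fold change over 1 or under -1. By these limits 1 of the 10 genes was called higher (*LRAT*) and 0 were called lower. They called 6.01% of all tested genes higher and 0.334% lower. At an adjusted p under 0.05 with no limit on the fold change, 4 of the 10 were higher (*LRAT*, *PDGFRA*, *PDGFRB* and *RGS5*) and 1 lower (*LUM*), against 26.7% and 2.28% of all genes. Without pool 1 of the initial state the numbers were 1 higher and 0 lower by the stricter limits (6.03% and 0.298% of all genes), and 4 higher and 0 lower at 0.05 (23.7% and 2.14%). The share of higher genes among all genes was large, and over all tested genes the log2 fold change had a median of 0.25. With the libraries scaled by their median ratio over genes, 1 of the 10 was called higher (422 of 13109 genes). At 0.05, 2 were then higher (*LRAT* and *PDGFRA*) and 1 lower (*LUM*), against 1601 and 1159 of 13109 genes. The median of the 10 was -0.17 with that scaling, against 0.01 for all genes. The p-values measure the spread between pools of 2 pigs, and in whole liver RNA a change in the number of stellate cells cannot be told apart from a change in RNA per cell.

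**Figure D1:**
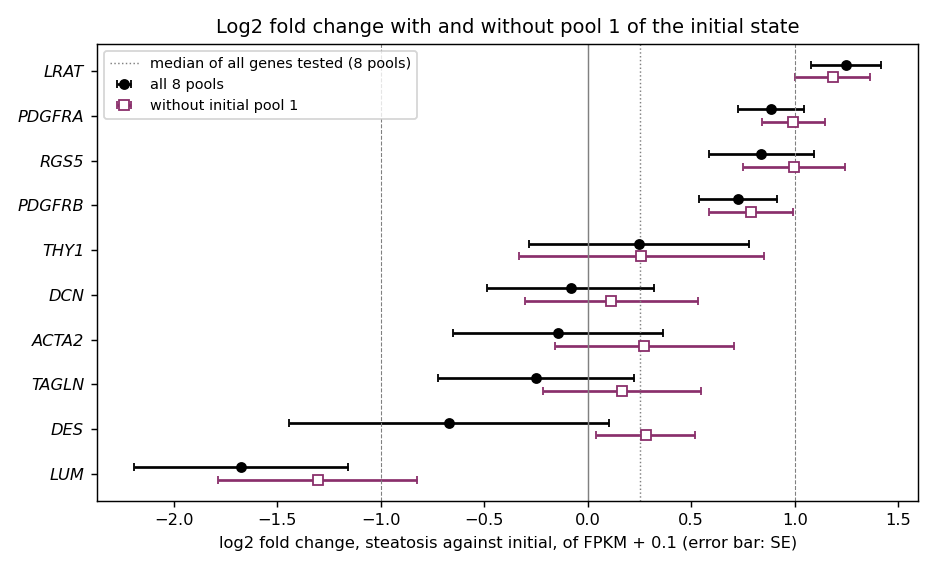
Log2 fold change (steatosis against the initial state, of FPKM + 0.1) of the 10 genes, with all 8 pools (black circles) and without pool 1 of the initial state (open squares). Bars are standard errors, the dotted line is the median of all tested genes (0.25) and the dashed lines mark -1 and 1. *LRAT*, *PDGFRA*, *RGS5* and *PDGFRB* lie above 0.7 in both, and the points of *ACTA2*, *TAGLN*, *DES* and *DCN* move from below 0 to above 0 when the pool is left out.

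*LRAT* (gene 100513994, Sscrofa11.1 chromosome 8 from 74412226 to 74428713) encodes lecithin retinol acyltransferase, the enzyme that makes the retinyl esters stored by stellate cells. Its FPKM was 1.47, 2.16, 1.97 and 1.31 in initial pools 1 to 4, and 4.21, 4.45, 4.33 and 3.69 in steatosis pools 1 to 4. Every steatosis pool was above every initial pool, with a clear gap between the groups. The mean went from 1.73 ± 0.403 to 4.17 ± 0.335 FPKM (SD, n = 4), a ratio of 2.41. The log2 fold change was 1.25 (SE 0.17, limma with Benjamini-Hochberg adjustment, adjusted p = 0.000773), and 1.18 (SE 0.18, adjusted p = 0.00194) without initial pool 1. A two-sided exact test that permutes the pools gave p = 0.0286, the smallest that 4 pools against 4 allow. Of all tested genes, 95.3% had a lower log2 fold change than *LRAT*. Since the estimate was close to the fold limit, a pseudocount of 1 brought it to 0.93, below that limit, while its adjusted p stayed under 0.01 in all 20 alternatives tried.

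*PDGFRA* (gene 100627123, chromosome 8 from 40966568 to 41021440), the receptor that binds all dimers of the A, B and C chains, had the next largest log2 fold change among the genes that were higher. It was at 2.22, 1.71, 1.62 and 1.55 FPKM in the initial pools and at 3.21, 3.04, 3.04 and 4.17 in steatosis. The groups did not overlap, and the initial pools other than pool 1 lay close together, between 1.55 and 1.71 FPKM. Its log2 fold change was 0.89 (SE 0.16, limma with Benjamini-Hochberg adjustment, adjusted p = 0.00326) and 0.99 (SE 0.15, adjusted p = 0.00207) without initial pool 1, so it passed the limit on p and not that on the fold. Its adjusted p was under 0.01 in 14 of 20 alternatives and under 0.05 in all of them, and the median ratio scaling gave 0.64 (adjusted p = 0.0169).

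*PDGFRB* (gene 102166564, chromosome 2 from 151155753 to 151192818), the receptor of the B and D chains, is widely used to mark stellate cells and pericytes. Its initial values were 6.36, 6.58, 6.30 and 3.67 FPKM, and its steatosis values 9.57, 8.67, 8.29 and 10.88. Again the groups did not overlap, but pool 4 of the initial state lay far below the other initial pools. The mean went from 5.73 ± 1.38 to 9.35 ± 1.15 FPKM (SD, n = 4). The log2 fold change was 0.73 (SE 0.19, limma with Benjamini-Hochberg adjustment, adjusted p = 0.0183), 0.79 (SE 0.20, adjusted p = 0.0212) without initial pool 1 and 0.53 (adjusted p = 0.0101) without initial pool 4. In initial pool 4 the summed FPKM of the 11 hepatocyte rows was the highest of all libraries (91646, against 54982 to 66467 in the others) and that of 22 matrix and activation genes the lowest (453, against 759 to 1292), and their part in the result was not tested. The adjusted p was under 0.05 in 15 of 20 alternatives. The other 5 were steatosis pool 4 left out (0.0570), upper quartile scaling (0.0541), median ratio scaling without (0.0518) and with the pool block (0.0889), and pool 1 of both groups left out with that block (0.0553).

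*PDGFRB* was above *PDGFRA* in every pool, by a ratio of FPKM between 2.37 and 3.89. The mean ratio was 3.24 ± 0.751 in the initial state and 2.79 ± 0.160 in steatosis (SD, n = 4), with overlapping values. Of the 3 ligand genes in the table (*PDGFA*, *PDGFC* and *PDGFD*), 1 was higher at an adjusted p under 0.05, against 26.7% of all genes. *PDGFC*, a ligand of the receptor alpha, went from 5.47 ± 0.921 to 10.4 ± 0.468 FPKM with no overlap (log2 fold change 0.93, SE 0.13, limma with Benjamini-Hochberg adjustment, adjusted p = 0.000839). Neither *PDGFA* (adjusted p = 0.0628) nor *PDGFD* (adjusted p = 0.178) passed. *HGF*, which is no ligand of these receptors but a hepatocyte mitogen that stellate cells secrete, went from 3.49 ± 0.705 to 5.68 ± 0.965 FPKM (adjusted p = 0.0169). *PDGFC* and *HGF* passed without initial pool 1 too, and with the median ratio scaling only *PDGFC* did (log2 fold change 0.68, adjusted p = 0.0019).

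*RGS5* (gene 397640, chromosome 4 from 87286953 to 87340816) encodes a regulator of G-protein signalling typical of pericytes. It was at 2.88, 1.71, 1.86 and 1.91 FPKM in the initial pools and at 2.66, 2.90, 4.52 and 5.57 in steatosis. Only initial pool 1 reached into the steatosis range, and without it the groups did not overlap. The log2 fold change was 0.84 (SE 0.25, limma with Benjamini-Hochberg adjustment, adjusted p = 0.0334) and 0.996 (SE 0.25, adjusted p = 0.0182) without that pool, whereas the median ratio scaling gave 0.59 and an adjusted p of 0.141. Leaving out any of initial pools 2, 3 and 4 or steatosis pools 3 and 4 also took the adjusted p past 0.05, to between 0.0683 and 0.0887. The exact permutation test gave p = 0.0571 with all pools.

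No overlap with steatosis higher was found for 3 of the 10 genes (*LRAT*, *PDGFRB* and *PDGFRA*), and for 29.6% of all tested genes. There were 4 without initial pool 1, with *RGS5* added, against 34.0% of all genes. Separation of the groups was thus common in the table as a whole.

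**Figure D2:**
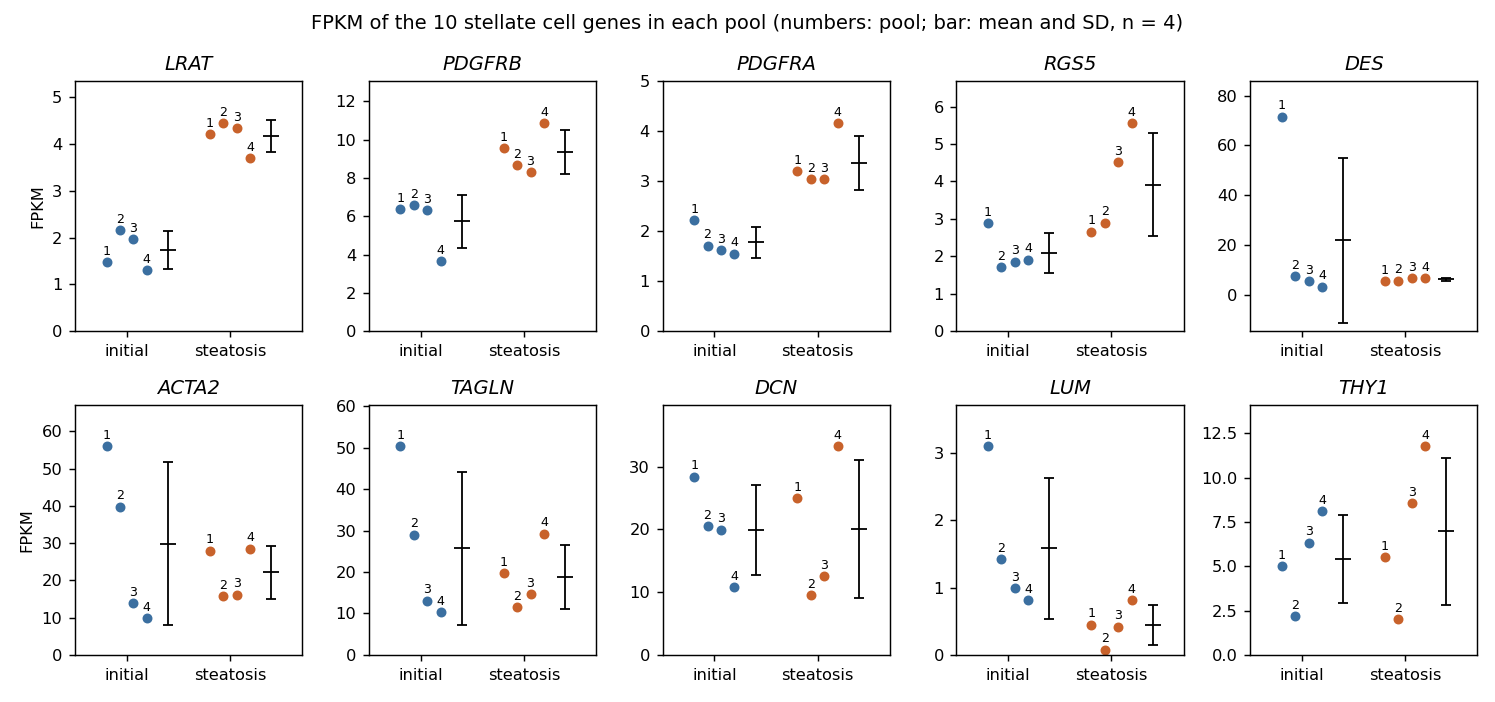
FPKM of each of the 10 genes in each pool, with the initial state on the left and steatosis on the right of each panel. The number over a point is its pool, the bar is the mean and SD (n = 4), and each panel has its own linear axis. *LRAT*, *PDGFRB* and *PDGFRA* have no overlap between groups, and *DES* reads 71.55 in initial pool 1 and 3.23 to 7.39 in every other pool.

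*DES* (gene 396725, chromosome 15 from 121428539 to 121435426) encodes desmin, an intermediate filament of muscle that marks stellate cells in rodents. It was at 71.55, 7.39, 5.37 and 3.23 FPKM in the initial pools and at 5.54, 5.72, 6.76 and 6.67 in steatosis. Initial pool 1 was 13.4 times the mean of the other initial pools, and the 4 steatosis values fell inside the range of those pools. With all pools the log2 fold change was -0.67 (SE 0.77, limma with Benjamini-Hochberg adjustment, adjusted p = 0.539), and without initial pool 1 it turned to 0.28 (SE 0.24, adjusted p = 0.411). Without that pool the means were 5.33 ± 2.08 (SD, n = 3) and 6.17 ± 0.632 FPKM (SD, n = 4).

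*ACTA2* (gene 733615, chromosome 14 from 100868145 to 100886732) encodes smooth muscle alpha-actin, the usual mark of the activated stellate cell. It was at 55.95, 39.82, 13.83 and 9.89 FPKM in the initial pools and at 28.02, 15.86, 16.21 and 28.51 in steatosis. Initial pools 1 and 2 were above all steatosis pools, and initial pools 3 and 4 below all of them. The log2 fold change was -0.14 (SE 0.51, limma with Benjamini-Hochberg adjustment, adjusted p = 0.849), 0.27 (SE 0.43, adjusted p = 0.665) without initial pool 1 and 0.86 (adjusted p = 0.0662) without initial pools 1 and 2, so its direction depends on these libraries. Actin genes have near-identical coding sequence and RSEM divides shared fragments between them, so the level in initial pool 1, with *ACTA1* at 1439 FPKM, is uncertain.

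*TAGLN* (gene 397021, chromosome 9 from 44561756 to 44567385), which encodes the actin-binding protein transgelin, gave nearly the same profile. It was at 50.32, 29.02, 13.09 and 10.31 FPKM in the initial pools and at 19.71, 11.56, 14.70 and 29.29 in steatosis. The order of the initial pools was that of *ACTA2*, and the ratio of *ACTA2* to *TAGLN* stayed between 0.96 and 1.42 in all 8 libraries. Its log2 fold change was -0.25 (SE 0.47, limma with Benjamini-Hochberg adjustment, adjusted p = 0.716) and turned to 0.17 (SE 0.38, adjusted p = 0.771) without initial pool 1. The ratio of *DES* to *TAGLN* was 1.42 in initial pool 1 and between 0.23 and 0.49 in the other libraries, so *DES* was raised in that pool more than *TAGLN* was.

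Other contractile genes moved with these 3 in the initial pools. Of 15 smooth muscle and contractile genes, 0 were called and 0 had an adjusted p under 0.05 in either direction with all pools, with a median log2 fold change of 0.07 (the median ratio scaling gave -0.16). In initial pool 1 their summed FPKM was 710, against 196 to 285 in the other initial pools and 259 to 288 in steatosis, and 12 of the 15 were highest there. *TPM2*, the beta-tropomyosin, was at 237 FPKM in initial pool 1 and between 13.3 and 20.3 elsewhere. *CALD1*, the actin-binding caldesmon, was even over all pools, from 64.3 to 84.6 FPKM. The median log2 fold change without initial pool 1 was 0.39 against 0.25 for all genes. Of the 15, 2 were then higher at an adjusted p under 0.05 in limma, against 23.7% of all genes. They were *PDLIM7* (0.63, adjusted p = 0.0198, outside the naming rule and chosen after its values were seen) and *HSPB6* (0.61, adjusted p = 0.0227).

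A narrower set of smooth muscle genes, chosen after their values were seen, was high in both initial pools 1 and 2. *MYH11*, the heavy chain of smooth muscle myosin, was at 11.78, 5.54, 1.65 and 1.08 FPKM in the initial pools and at 1.75, 1.75, 1.33 and 2.58 in steatosis. *CNN1* (calponin) was at 11.79, 8.51, 1.68 and 0.65 FPKM, then at 1.82, 0.79, 0.82 and 2.67. The enteric and vascular actin *ACTG2* was at 17.15, 9.65, 1.97 and 0.59 FPKM, then at 0.97, 0.37, 0.55 and 1.75. In initial pool 2, where these were high, *ACTA1* was at 0.49 FPKM and *DES* at 7.39, so skeletal muscle genes were not raised there alongside them. The stomach gene *PGA5* was at 7.39 FPKM in that pool, 15.8 in initial pool 3, 0.08 in initial pool 4 and at most 0.14 in steatosis. Whether stomach tissue had a part in the smooth muscle genes was not tested. The part of the smooth muscle genes in the levels of *ACTA2* and *TAGLN* was not tested.

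**Figure D3:**
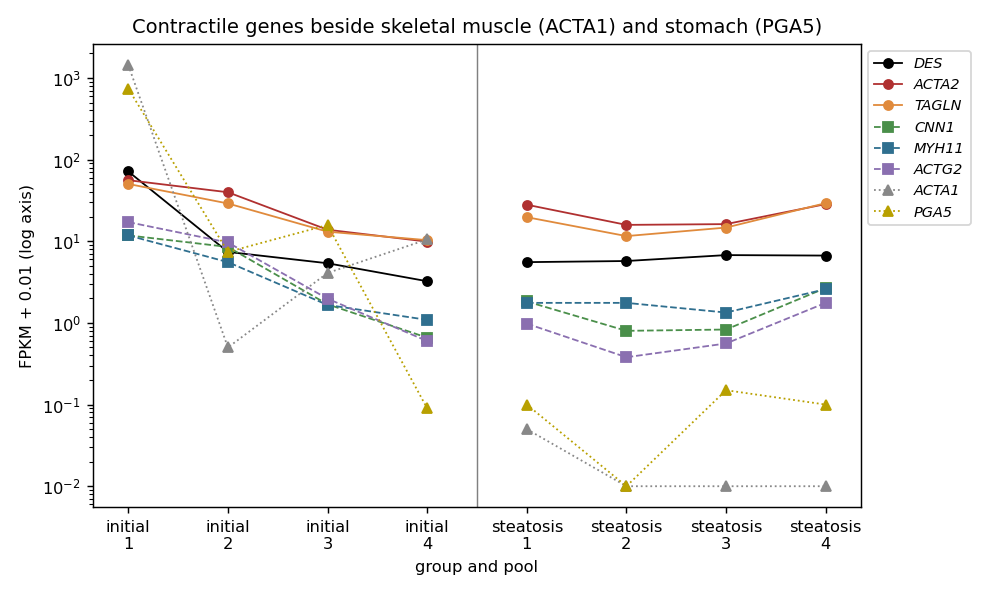
FPKM (plus 0.01, log axis) of *DES*, *ACTA2* and *TAGLN* (circles), of the smooth muscle genes *CNN1*, *MYH11* and *ACTG2* (squares), and of *ACTA1* of skeletal muscle and *PGA5* of stomach (triangles) in each pool. Lines join the values of 1 gene within a group and imply no order of pools. *ACTA1* (1439) and *PGA5* (739) stand out in initial pool 1, and the smooth muscle genes are high in initial pools 1 and 2.

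*LUM* (gene 100152607, chromosome 5 from 91748871 to 91756381) encodes lumican, a keratan sulphate proteoglycan that regulates the assembly of collagen fibrils. It had the lowest mean of the 10 in both groups, at 3.10, 1.43, 0.99 and 0.81 FPKM in the initial pools and at 0.45, 0.08, 0.42 and 0.81 in steatosis. The groups met at a single value, 0.81 in pool 4 of both, and all other steatosis pools were below all initial pools. The mean fell from 1.58 ± 1.04 to 0.44 ± 0.298 FPKM (SD, n = 4), and the log2 fold change was -1.67 (SE 0.52, limma with Benjamini-Hochberg adjustment, adjusted p = 0.0361). Without initial pool 1 it was -1.30 (SE 0.48, adjusted p = 0.0731). Leaving out initial pool 2 or steatosis pool 1, 2 or 3 also took the adjusted p past 0.05, to between 0.0609 and 0.0740, and the exact permutation test gave p = 0.0571. A pseudocount of 1 brought the log2 fold change to -0.79 (adjusted p = 0.0381), and with no filter the adjusted p was 0.0585. In steatosis these levels correspond to about 16, 3, 16 and 30 fragments, estimated from the FPKM step and gene length, so the low values carry a large counting error.

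*DCN* (gene 396957, chromosome 5 from 91678601 to 91713925), the gene of decorin, lies 34.95 kb from *LUM* in the same cluster of small leucine-rich proteoglycans. It was at 28.38, 20.51, 19.97 and 10.74 FPKM in the initial pools and at 25.01, 9.48, 12.56 and 33.20 in steatosis. The steatosis values lay both above and below the initial ones, and the means, 19.9 ± 7.22 and 20.1 ± 11.0 FPKM (SD, n = 4), were nearly equal. The log2 fold change was -0.08 (SE 0.41, limma with Benjamini-Hochberg adjustment, adjusted p = 0.892) and turned to 0.11 (SE 0.42, adjusted p = 0.858) without initial pool 1. The ratio of *DCN* to *LUM* was 9.15, 14.3, 20.2 and 13.3 in the initial pools and 55.6, 119, 29.9 and 41.0 in steatosis. That ratio did not overlap between the groups, although *DCN* itself did. In steatosis it rests on the low counts of *LUM*, and the value of 119 in pool 2 on about 3 fragments.

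Of the 8 other small leucine-rich proteoglycans that passed the filter, 1 was called higher and 5 had an adjusted p under 0.05, all higher, with a median log2 fold change of 0.84. For all genes these were 6.01%, 26.7% and a median of 0.25. The numbers of proteoglycans were the same without initial pool 1 (median 0.98, against 0.25 for all genes). With the median ratio scaling 0 were called and 1 passed 0.05 (median 0.59, against 0.01 for all genes). *BGN* (biglycan) went from 46.7 ± 8.25 to 105 ± 28.7 FPKM (SD, n = 4) with no overlap (log2 fold change 1.14, SE 0.20, limma with Benjamini-Hochberg adjustment, adjusted p = 0.00275). *PRELP*, a matrix anchor of basement membranes, went from 7.87 ± 1.62 to 12.9 ± 3.25 (adjusted p = 0.0254). *FMOD* (fibromodulin, log2 fold change 0.82, adjusted p = 0.123) and *OGN* (osteoglycin, -0.23, adjusted p = 0.560) did not pass. *LUM* was thus the only one of the 10 proteoglycans tested that was lower at 0.05 with all pools.

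**Figure D4:**
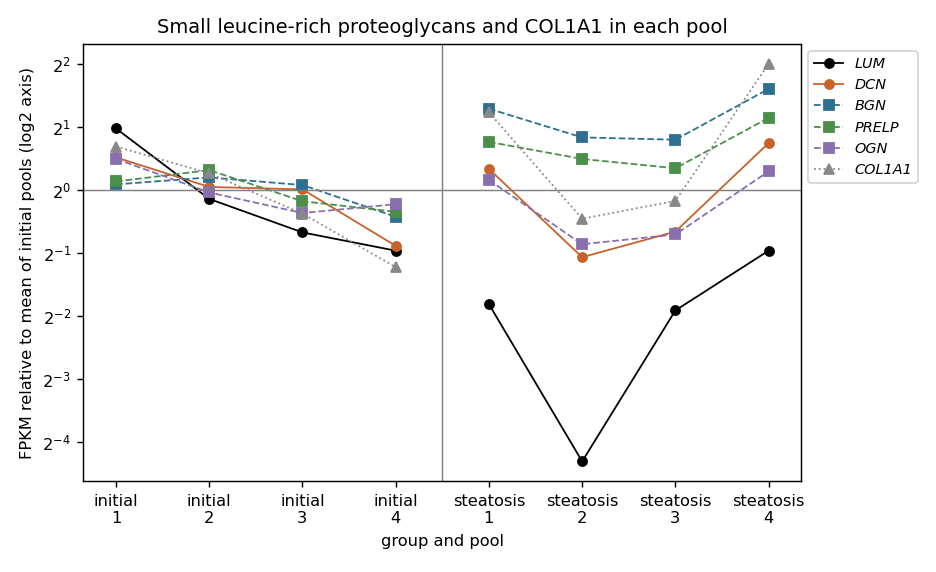
FPKM of *LUM*, *DCN*, *BGN*, *PRELP* and *OGN*, with *COL1A1* for reference, in each pool, divided by the mean of the gene's initial pools (log2 axis). Lines join the values of 1 gene within a group and imply no order of pools. *LUM* lies below the line of the initial mean in all 4 steatosis pools, *BGN* and *PRELP* above it, and *DCN* and *COL1A1* are above it in steatosis pools 1 and 4 and below it in pools 2 and 3.

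The last of the 10, *THY1* (gene 100271931, chromosome 9 from 46607022 to 46612691), encodes a surface glycoprotein of portal fibroblasts and some T cells. It was at 5.01, 2.2, 6.34 and 8.12 FPKM in the initial pools and at 5.54, 2.04, 8.55 and 11.77 in steatosis. Its level followed the pool number rather than the group, lowest in pool 2 and highest in pool 4 at both times. The log2 fold change was 0.25 (SE 0.53, limma with Benjamini-Hochberg adjustment, adjusted p = 0.749), the same as the median of all genes, and 0.26 (SE 0.59, adjusted p = 0.768) without initial pool 1. In a fit blocked by pool number the standard error fell from 0.53 to 0.14, and the adjusted p of 0.219 still missed the limit. The direction turned with the median ratio scaling (-0.0017).

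Set side by side per length, the level of these genes after the diet was highest for *ACTA2* (22.2 ± 7.07 FPKM), *DCN* (20.1 ± 11.0) and *TAGLN* (18.8 ± 7.75), which did not differ beyond their spread. *PDGFRB* (9.35 ± 1.15), *THY1* (6.98 ± 4.16) and *DES* (6.17 ± 0.632) came next by mean, and *THY1* overlapped both others. Its steatosis pools ran from 2.04 to 11.77 FPKM, so *THY1* also overlapped genes placed above and below. Lower by mean, *LRAT* (4.17 ± 0.335), *RGS5* (3.91 ± 1.38) and *PDGFRA* (3.37 ± 0.543) overlapped as neighbours in the order, and *LUM* (0.44 ± 0.298, SD, n = 4 throughout) was below all. *ACTA2* was first and *LUM* last in the initial state too. *DES* was in place 3 of the initial means with pool 1 and in place 6 without it, which was also its place in steatosis.

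The profiles most like each gene over the 8 libraries were sought among all tested genes with a symbol, by the root mean square difference of log2(FPKM + 0.1) after centring each gene on its mean. *ACTA2* and *TAGLN* were each other's nearest gene (0.21), followed for both by *SOX17* (0.30 and 0.28). *DES* was nearest to *FLNC*, a filamin of striated muscle (0.23), then *TPM2* (0.27) and *SYNM* (0.30). *PDGFRB* was nearest to *ATP8B2* (0.080), *PDGFRA* to *MFSD6* (0.10), *LRAT* to *SDR9C7* (0.11) and *RGS5* to *C1QTNF6* (0.20). *DCN* was nearest to *GEM* (0.18). *LUM* (*CCL26*, 0.48, then the elastin gene *ELN*, 0.53) and *THY1* (*ENPEP*, 0.48) had their nearest genes at a larger distance. The distance is not scaled to how much a gene itself varied. The root mean square of the centred profile was 1.14 for *LUM*, 0.83 for *THY1* and 0.55 for *RGS5*.

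Other genes of quiescent stellate cells were mostly higher after the diet. Of 21 tested, 17 had an adjusted p under 0.05 and were higher, 0 were lower, and 2 were called higher, with a median log2 fold change of 0.72 against 0.25 for all genes. The shares of all genes were 26.7% higher at 0.05 and 6.01% called higher. Without initial pool 1 the counts were 17 at 0.05 and 4 called, against 23.7% and 6.03% of all genes. With the median ratio scaling they were 8 and 0, against 1601 and 422 of 13109 genes (median 0.49 against 0.01 for all genes). *CYGB* (cytoglobin, an oxygen-binding globin of stellate cells) went from 1.02 ± 0.231 to 2.49 ± 0.555 FPKM (log2 fold change 1.21, SE 0.21, limma with Benjamini-Hochberg adjustment, adjusted p = 0.00279). *ADAMTSL2*, a secreted matrix protein that binds fibrillin, went from 3.60 ± 0.919 to 7.90 ± 1.61 (log2 fold change 1.13, adjusted p = 0.00473). The chemokine *CXCL12* went from 61.2 ± 5.27 to 103 ± 12.7 FPKM (0.74, adjusted p = 0.0012), and the extracellular matrix gene *ECM1* from 35.7 ± 2.57 to 55.0 ± 5.85 (0.62, adjusted p = 0.00207). *GFAP*, a stellate cell mark in rodents, and *SPARCL1* were added after their values were seen. *GFAP* did not pass the filter (0.168 ± 0.0967 and 0.105 ± 0.0370 FPKM), and *SPARCL1* was the only one below 0 (-0.32, adjusted p = 0.350).

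In this list *PPARG*, a nuclear receptor of quiescent stellate cells and of adipocytes, turned on initial pool 1, and it was singled out after its values were seen. It was at 3.52, 0.26, 0.19 and 0.12 FPKM in the initial pools and at 1.76, 2.31, 1.96 and 1.41 in steatosis. With all pools its log2 fold change was 1.85 (adjusted p = 0.0893, limma with Benjamini-Hochberg adjustment), and without initial pool 1 it was 2.77 (adjusted p = 0.0001) with no overlap. The adipocyte gene *ADIPOQ* was at 27.92 FPKM in initial pool 1 and from 0 to 0.60 in the other libraries.

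Genes of matrix and activation were higher in the mean throughout. All 21 tested were above 0, 9 had an adjusted p under 0.05, 3 were called higher and 0 lower, with a median log2 fold change of 0.86. Of all 13175 genes tested, 10373 were above 0, 26.7% were higher at 0.05 and 6.01% were called higher, with a median of 0.25. Leaving out initial pool 1 gave 13 at 0.05, 3 called and a median of 1.07 (23.7%, 6.03% and 0.25 for all genes). With the median ratio scaling these were 4, 1 and 0.61 (1601 and 422 of 13109 genes, and 0.01). *VIM* (vimentin, an intermediate filament of mesenchymal cells and leukocytes) went from 25.3 ± 8.63 to 72.4 ± 5.07 FPKM (log2 fold change 1.57, SE 0.21, limma with Benjamini-Hochberg adjustment, adjusted p = 0.000687). *LOXL1*, a collagen and elastin cross-linking enzyme, went from 0.470 ± 0.116 to 1.76 ± 0.892 (1.59, adjusted p = 0.00707), and the growth factor *TGFB1* from 9.16 ± 1.42 to 18.4 ± 0.956 (1.01, adjusted p = 0.000414). *FN1* (fibronectin), which hepatocytes also make in quantity, did not pass (0.52, adjusted p = 0.0913).

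The fibrillar collagen *COL1A1*, added after its values were seen, varied more between steatosis pools than between groups. It was at 30.34, 22.59, 14.52 and 8.06 FPKM in the initial pools and at 44.18, 13.72, 16.70 and 75.22 in steatosis, and did not pass (0.81, adjusted p = 0.301, limma with Benjamini-Hochberg adjustment). Steatosis pools 1 and 4 were also the highest of their group for *DCN*, *ACTA2*, *TAGLN*, *BGN* and *MGP*. Other fibrillar collagens of the list were added after their values were seen too. In limma *COL5A1* passed 0.05 (1.10, adjusted p = 0.0217). *COL3A1* did not (0.97, adjusted p = 0.0545), but passed without initial pool 1 (1.14, adjusted p = 0.0385). *COL1A2* (0.86, adjusted p = 0.132) and *COL5A2* (0.36, adjusted p = 0.369) did not pass. With the median ratio scaling none of them passed.

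Among pericyte and portal fibroblast genes the counts at 0.05 were low in number and are read beside the 26.7% of all genes that were higher. Of 6 mural genes tested, 1 had an adjusted p under 0.05 (*KCNJ8*, a potassium channel subunit, 1.97 ± 0.310 to 3.09 ± 0.391 FPKM, adjusted p = 0.0145), 0 were called, and the median log2 fold change was 0.33. *CSPG4*, *HIGD1B* and *EBF1* stayed under the filter. *MCAM* (0.37, adjusted p = 0.117), *TBX2* (0.29, adjusted p = 0.246) and *ABCC9* (0.45, adjusted p = 0.0780) did not pass in limma with Benjamini-Hochberg adjustment. Of 13 portal and capsular fibroblast genes, 3 had an adjusted p under 0.05, all higher, and 0 were called, with a median of 0.42. *FBLN1* (fibulin) went from 31.8 ± 4.94 to 61.0 ± 12.5 FPKM (0.93, adjusted p = 0.00284), and *CLEC3B* (tetranectin) from 50.4 ± 6.91 to 72.8 ± 11.99 (0.53, adjusted p = 0.0224). *MGP* (0.66, adjusted p = 0.155) and *MFAP4* (0.77, adjusted p = 0.147) did not pass. Without initial pool 1 the numbers at 0.05 were 1 of 6 and 4 of 13 (23.7% of all genes were higher). With the median ratio scaling they were 0 of 6 and 1 of 13 (1601 of 13109 genes were higher). *ELN*, named above for its likeness to *LUM*, was at 6.40, 5.78, 2.85 and 1.40 FPKM in the initial pools and at 1.98, 0.91, 1.19 and 2.61 in steatosis, with initial pools 1 and 2 high as for the smooth muscle genes (-1.13, adjusted p = 0.0979).

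**Figure D5:**
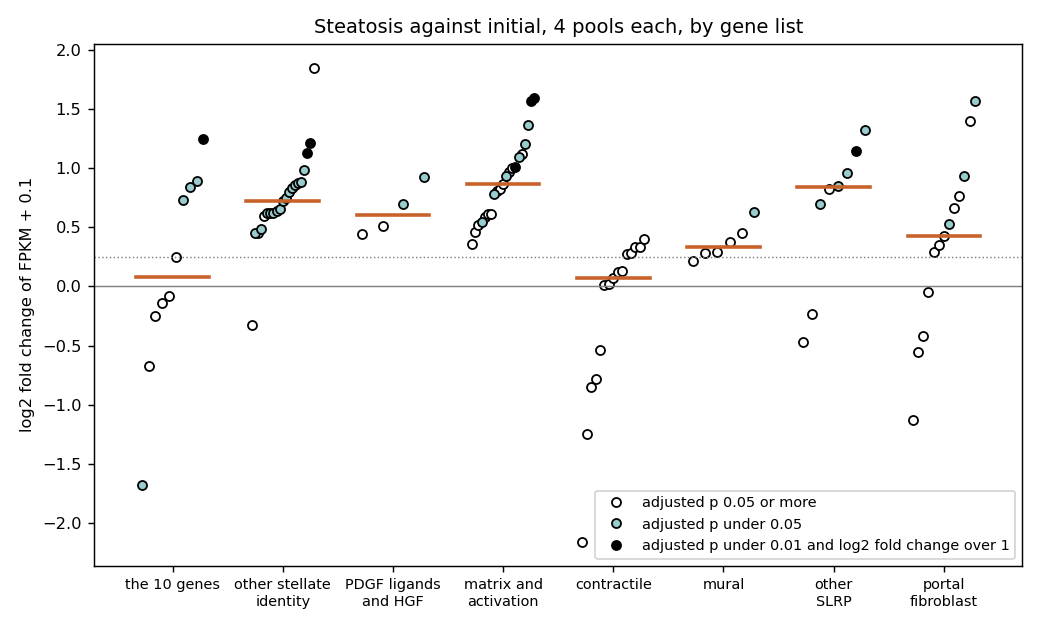
Log2 fold change (steatosis against the initial state, of FPKM + 0.1, 4 pools each) of every tested gene in 8 lists, from the 10 genes of this account on the left to portal fibroblast genes on the right. Orange bars are list medians, the dotted line is the median of all tested genes (0.25), and fill marks the adjusted p from limma. The medians of the stellate identity list (0.72) and of the matrix list (0.86) lie above that line, and those of the 10 genes (0.08) and of the contractile list (0.07) below it.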

How the data were processed

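Liver RNA of 8 pools (4 initial, 4 steatosis), each of 2 pigs, was sequenced from poly-A RNA as paired 100-bp reads. The authors mapped the reads with HISAT2 2.0.4 to Sus scrofa 11.1, assembled new transcripts with StringTie and quantified with Bowtie2 2.2.5 and RSEM 1.2.12 (versions from the submitters' processing notes), and deposited FPKM. RSEM spreads fragments that match several genes, which matters for actins and tropomyosins. The gene length in bp (a value of another kind) was taken from a second deposited file and used only to estimate depth and fragments. The authors' Poisson comparisons of single pairs of pools (fold changes and false discovery rates) were not used.

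Rows with at least 0.3 FPKM in at least 4 libraries were put on the scale log2(FPKM + 0.1), with no further scaling, and fitted by limma 3.58.1 (R 4.3.3, trend). Genes were called at an adjusted p (Benjamini-Hochberg, all 13175 rows) under 0.01 when the log2 fold change also exceeded 1 in size, as in the study. Fold changes on this scale understate those of low genes. Mean FPKM of single genes was also tested by exact permutation of the pools (two-sided), whose smallest p is 0.0286 for 4 against 4 and 0.0571 for 4 against 3. The fit was tested on simulated data. Tables and plots used Python 3.11.15, numpy 2.4.6, pandas 2.3.3, scipy 1.17.1 and matplotlib 3.10.9.

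Gene coordinates are those of RefSeq, assembly Sscrofa11.1. The 10 genes and all gene lists (stellate identity, growth factors, matrix and activation, contractile, mural, proteoglycan, portal fibroblast, mesothelium, skeletal muscle, stomach, adipose, hepatocyte, macrophage, endothelium and cholangiocyte) were chosen with earlier results of these data known. From each list at most 4 genes were named, called genes first by size of change and then by mean FPKM, then the 3 genes nearest in profile to each of the 10, and others only where said. Some genes chosen by this rule are not reported here. *CCN2* was matched by its synonym. *PDGFB*, *COX4I2*, *GUCY1A1*, *GUCY1B1*, *EPYC*, *MSLN*, *MB*, *CBLIF* and *KRT7* were not analysed here, and *TF* has 2 gene IDs, both kept.

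Deviations from the group means correlated at 0.16, 0.35, 0.32 and 0.25 between pools of the same number (all over 0.1) and from -0.203 to 0.028 between others. Such deviations cancel out within a group, so positive same-number values push the others towards negative ones. The contrast between them is therefore partly built in. On the values over 0.1 the numbers were taken to pair the pools, which the study does not state. The block was an alternative, as were other scalings, filters, a pseudocount of 1, a looser limit and each library left out.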

Additional observations from a re-analysis of the deposited data

Results flagged for a closer look

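In each group of 4 pools the gap between the most distant pool and its neighbour was compared with the group's range (Dixon's test at 95%), which flags about 1 in 20 groups by chance. Of the 20 groups (10 genes in 2 states), 4 exceeded it. *DES* in initial pool 1 (71.55 FPKM) was the highest of its group, next to 7.39 in initial pool 2. *RGS5* in initial pool 1 (2.88 FPKM) was also the highest, next to 1.91. *PDGFRB* in initial pool 4 (3.67 FPKM) was the lowest, next to 6.30. *PDGFRA* in steatosis pool 4 (4.17 FPKM) was the highest, next to 3.21.

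For *RGS5* the ratio of gap to range was 0.8291, at the limit itself.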

How the results depend on the processing

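Of the 20 alternatives tried, each was run on all 10 genes except a filter of 1 FPKM, which removed *LUM*. *LRAT*, *PDGFRB*, *PDGFRA* and *RGS5* stayed higher and *LUM* lower in all that could be run. Over all genes, 792 higher and 44 lower (94.7% higher) became 449 and 67 with upper quartile scaling, 422 and 77 (84.6% higher) with the median ratio, 425 and 81 with the median ratio and the block, 427 and 71 with the median ratio without initial pool 1, 395 higher with a pseudocount of 1, 20 lower without initial pools 1 and 2, and 3519 and 300 at an adjusted p of 0.05 with no fold limit. Leaving out each library in turn gave 573 to 788 higher and 26 to 51 lower, with 29 without initial pool 2, 28 without steatosis pool 2 and 26 without steatosis pool 4.

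The number of the 10 genes called was 0 with a pseudocount of 1, 0 with the median ratio without initial pool 1 and 0 without initial pools 1 and 4. *LRAT* then stood at 0.93, 0.94 and 0.98, just under the fold limit. It was 2 without initial pools 1 and 2 (*LRAT* and *PDGFRA*), 2 without pool 1 of both groups in the paired fit (*LRAT* and *RGS5*) and 5 at 0.05. Combinations of left-out pools, and of the median ratio with other changes, were chosen after seeing the data.

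The direction turned for 5 genes that passed no limit. Leaving out each library in turn gave -0.56 to 0.27 for *ACTA2*, -0.59 to 0.17 for *TAGLN*, -1.20 to 0.28 for *DES*, -0.38 to 0.22 for *DCN* and -0.12 to 0.74 for *THY1*. Without initial pools 1 and 2 the values were 0.86, 0.60, 0.55, 0.27 and -0.29 in the same order. Without pool 1 of both groups in the paired fit *ACTA2* was at 0.14, *TAGLN* at 0.11 and *DES* at 0.33. With the median ratio without initial pool 1 *ACTA2* was at 0.023 and *DES* at 0.033. *THY1* was at -0.0017 with the median ratio, paired or not. The difference of mean FPKM without initial pool 1 was 0.97 for *ACTA2*, 1.34 for *TAGLN* and 0.843 for *DES*, against falls with all pools. The exact test cannot pass 0.05 with 3 initial pools. The cause of these shifts was not tested.

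With the replicate block 785 genes were higher and 57 lower, and the pairing changed no call among the 10 genes (*LRAT* adjusted p = 0.00126, *PDGFRB* 0.0341 in the paired limma fit). Depth is known only relative to the deepest library, so no counting interval is given, and low genes such as *LUM* are the least certain.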

Other observations

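Markers of other cell types moved as follows in the same comparison, by limma with Benjamini-Hochberg adjustment and with 4 pools per group. Over all genes tested, 26.7% were higher at an adjusted p under 0.05 and 6.01% were called higher, with a median log2 fold change of 0.25. Of 12 endothelial genes, 5 were higher at an adjusted p under 0.05 and 0 were called, with a median log2 fold change of 0.51. *ENG* (endoglin) went from 17.7 ± 2.51 to 33.2 ± 2.91 FPKM. Of 12 macrophage genes, 7 were higher at 0.05 and 2 were called, *MARCO* (log2 fold change 3.33, adjusted p = 6.19e-05) and *CD68* (2.01, adjusted p = 0.00076), with a median of 0.53. Of 8 cholangiocyte genes tested, 4 were called higher, among them *SPP1* (log2 fold change 4.54), and the median was 1.101. *SPP1* and *CD68* are also made by other cells of the liver. The *CD68* row used here is gene 103158530, and the study lists its selected *CD68* transcript under another gene ID. Of the 11 hepatocyte rows 2 were higher at 0.05, both *TF*, and the median was 0.05. Without initial pool 1 the numbers higher at 0.05 were 3 endothelial, 7 macrophage, 5 cholangiocyte and 1 hepatocyte (23.7% of all genes). Those called were 0, 2, 4 and 0 in the same order (6.03%). With the median ratio scaling 3, 4, 4 and 0 were higher at 0.05 (1601 of 13109 genes). There 1 macrophage gene and 1 hepatocyte gene were lower (1159 of 13109 genes).

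Of 6 adipose genes tested, 1 was called higher, *AQP7* (an aquaglyceroporin, 2.39, adjusted p = 0.00345). Without initial pool 1 there were 2, with *FABP4* added (log2 fold change 4.09, adjusted p = 5.98e-06 in limma). *FABP4* was at 44.73, 2.59, 3.74 and 2.15 FPKM in the initial pools and from 41.9 to 53.6 in steatosis, so initial pool 1 reached the steatosis range for this fatty acid binding protein of adipocytes and macrophages. None of the 7 mesothelial genes passed the filter, and their summed FPKM was 2.01 in initial pool 3 and between 0.04 and 0.37 elsewhere. Of the skeletal muscle and stomach genes 2 of each passed the filter, with 1 skeletal muscle gene lower at 0.05 (*ACTA1*, -7.00, adjusted p = 0.0211) with all pools. *ACTA1* passed the filter only through the 4 initial pools and was at most at 0.04 FPKM in steatosis. Its direction was therefore set by the filter. Without initial pool 1 no skeletal muscle gene passed the filter. Their sums are given with the libraries above.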
